A study of Schmidtea polychroa with 24 samples.

Results

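The comparison described here is that of whole cocoons of the freshwater planarian Schmidtea polychroa at 72 h with those at 24 h after deposition, with 3 libraries at each time, 6 of the 24 libraries of the series. A further 6 libraries, of 32 h and 48 h, lie between these times, and those of 4 h, 96 h, 120 h and 168 h lie outside them. Cocoons came from a sexual laboratory population, were kept at 20 °C and received no treatment. Each library is a biological replicate made from 4 pooled whole cocoons, so that embryo, yolk cells and anything else in the capsule were measured together. The labels name no tissue or cell type beyond the embryo and do not say whether replicates shared parents or a collection day.

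Planarian eggs are ectolecithal: the yolk is held in separate yolk cells, and a capsule holds several zygotes among many of them. During early cleavage the blastomeres disperse among fused yolk cells instead of forming a compact ball. The embryo then builds a transient outer layer and a temporary embryonic pharynx, with which it swallows the remaining yolk. In such material a lower level of a transcript can mean fewer cells of one type or less RNA per cell, and bulk libraries cannot tell these apart.

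The rows are transcripts of a de novo assembly, summed here per assembler gene, which is a group of isoforms. The files do not pair these genes with names, so roles, pathways and cell type markers could not be read and the labelled material could not be checked against markers. Of 22365 genes, 15587 passed the filter on low counts and were tested. The libraries held 2615634 ± 698210 estimated counts at 24 h, from 1868442 to 3251481, and 2319444 ± 610290 at 72 h, from 1617797 to 2727027 (SD, n = 3 each). A number of 3 counts corresponds to between 0.923 and 1.85 CPM, the count scaled to the library's total, in these libraries, so a gene below that level could be missed in a single one. This floor covers counting error only.

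Some libraries stood apart from others of their time. Over all tested genes, 72h replicates 1 and 2 had a Spearman correlation of 0.921 with each other, across genes, while 72h replicate 3 had 0.699 and 0.661 with them and 0.820 to 0.882 with the 24 h libraries. Over the 3094 genes with a mean log2 CPM above 5, 72h replicate 3 was instead closest to its own time, with a mean Pearson correlation of 0.900. The library labelled 48h replicate 2 had 0.919 with the 72 h libraries on that measure and 0.783 with the other 48 h libraries. The library labelled 120h replicate 1 had 0.901 with 72 h and 0.331 with its own time. The cause of these differences was not tested. Counts of calls, the course over time and the overlap with later times are given with and without them.

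Between 24 h and 72 h a small set of genes changed beyond the spread between libraries, and most of them fell. At 72 h, 269 genes were lower and 78 were higher (edgeR's quasi-likelihood F test, adjusted p under 0.05 after Benjamini-Hochberg). These are 1.73% and 0.5% of the 15587 genes tested, or 2.23% together. Before adjustment, the p of the same test was under 0.05 for 3665 genes, or 23.5%. The typical tested gene had a log2 fold change of 0.20 (median), and 0.41 with DESeq2 size factors. A fall of a given size is thus larger, and a rise smaller, relative to the typical gene. With the same genes tested, this median was 0.06 without 72h replicate 3. It was 0.16 to 0.24 without any other library of the 2 times, so the offset rests in part on 72h replicate 3. The genes that fell had a median log2 fold change of -1.34, with quartiles of -1.62 and -1.14 and a range from -3.77 to -0.69. Of these 269 genes, 25 changed by less than 1 on the log2 scale, 228 by 1 to 2 and 16 by 2 to 4.

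**Figure D1:**
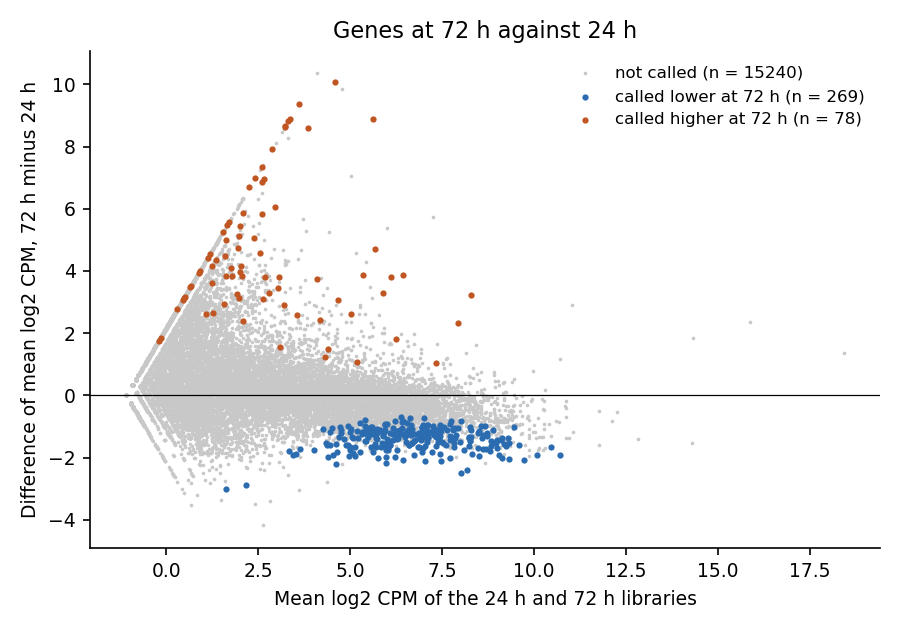
Each point is 1 of the 15587 tested genes, placed by its mean log2 CPM over the 24 h and 72 h libraries (x axis) and by the difference of the mean log2 CPM, 72 h minus 24 h (y axis). The 269 genes called lower form a narrow band among abundant genes, and the 78 called higher spread over a wide range of differences.

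The genes that rose came from very low levels. Of the 78, 24 had 0 counts over all 24 h libraries and 38 had 3 counts or fewer. The median log2 CPM of these genes was -0.29 at 24 h and 4.68 at 72 h, against 7.38 and 6.02 for the genes that fell. The median fitted log2 fold change of the 78 was 5.57. It was 4.49 with each of the 24 genes without a count set to its bound, the fold against 3 counts over the 24 h libraries together (0.365 CPM). For the 40 genes with more than 3 counts at 24 h it was 3.73. With the bounds, 72 of the 78 genes had log2 values of 2 or more and 48 had 4 or more.

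The ranges of the 3 libraries at each time did not overlap for 269 of 269 genes that fell and 74 of 78 that rose. Over all tested genes the 72 h range lay wholly below the 24 h range in 10.9% and wholly above it in 11.2%, or 22.1% together. As the calls and the ranges rest on the same libraries, nothing is read from these counts about the called genes.

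The calls followed abundance. Of 5 equal groups of tested genes by mean level over all 24 libraries, the most abundant held 241 of the 269 genes that fell, and the 2 least abundant held 0. In these 2 groups the 72 h range lay wholly below the 24 h range for 5 and 40 genes and wholly above it for 64 and 362. Whether the count floor limits the calling of falls there was not tested. The genes that rose were spread over the upper 4 groups, with 6, 31, 27 and 14 from low to high. In the most abundant group, of 3118 genes, the 72 h range lay wholly below the 24 h range for 1164 genes and wholly above it for 264. With DESeq2 size factors these numbers were 812 and 447. Over all 15587 tested genes they were 1694 and 1745, and 1151 and 2276 with DESeq2 size factors. The median log2 fold change in the most abundant group was -0.32, and -0.12 with DESeq2 size factors, so its sign held under both scalings while its size did not. In the other groups it was 2.79, 1, 0.459 and 0.0706 from low to high. The least abundant group lay near the count floor, with a median log2 CPM of -0.12 over all 24 libraries. There the 72 h range lay wholly above the 24 h range for only 64 of 3118 genes. Its median is therefore not read as a rise shared by its genes.

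The changes are shown library by library for 4 genes. They had the largest log2 fold changes among called genes whose higher time had at least 10 CPM in every library, whose lower time had more than 3 counts in all and whose ranges did not overlap, which 29 genes that rose and 267 that fell met. TRINITY_DN242011_c1_g1, with 7 assembled isoforms, had 2.65, 1.17 and 1.73 CPM in the 24 h libraries and 2622, 950 and 476 CPM in the 72 h libraries. The lowest 72 h library was far above the highest 24 h library, and the 72 h libraries differed widely among themselves. The log2 fold change was 9.56 ± 2.18 (standard error; edgeR, adjusted p = 0.0257). At 32 h it had 1.74, 8.38 and 13.9 CPM. At 48 h it had 2.48 and 2.70 CPM in replicates 1 and 3 and 2662 CPM in replicate 2, so within 48 h a single library held the 72 h level. The 96 h libraries averaged 1812 ± 658 CPM, and those of 168 h averaged 68.2 ± 5.28 CPM (SD, n = 3 each).

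TRINITY_DN240196_c2_g1, with 4 isoforms, had 0, 0 and 1.38 CPM at 24 h, 4 counts in all, and 384, 199 and 304 CPM at 72 h. All 72 h libraries were high and all 24 h libraries were at or near the floor. The rise on the log2 scale was 9.16 ± 1.93 (standard error; edgeR, adjusted p = 0.0161). The libraries of 48 h split in the same way as for the first gene, with 0.355 and 0 CPM in replicates 1 and 3 and 176 CPM in replicate 2. It went on to 1646, 1826 and 2041 CPM at 96 h and stood at 868 ± 143 CPM at 168 h (SD, n = 3).

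TRINITY_DN243848_c5_g2, with 1 isoform, had 781, 718 and 396 CPM at 24 h and 84.9, 120 and 125 CPM at 72 h. The 24 h and 72 h values were well apart, with a log2 fold change of -2.53 ± 0.41 (standard error; edgeR, adjusted p = 0.00554). The fall was spread over the times between, through means of 443 ± 141 CPM in the 32 h libraries, 311 ± 141 CPM in the 48 h libraries and finally 25.4 ± 11.3 CPM in the 168 h libraries (SD, n = 3 each). TRINITY_DN234828_c0_g1, also with 1 isoform, had 720, 728 and 542 CPM at 24 h and 126, 85.9 and 175 CPM at 72 h. Again no 72 h library reached the 24 h range, and the log2 fold change was -2.37 ± 0.40 (standard error; edgeR, adjusted p = 0.00628). Its mean was 482 ± 123 CPM in the 32 h libraries, 311 ± 99.6 CPM in the 48 h libraries and 27.0 ± 4.95 CPM in the 168 h libraries (SD, n = 3 each). For both genes 48h replicate 2 was the lowest of the 48 h libraries, with 157 and 202 CPM.

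**Figure D2:**
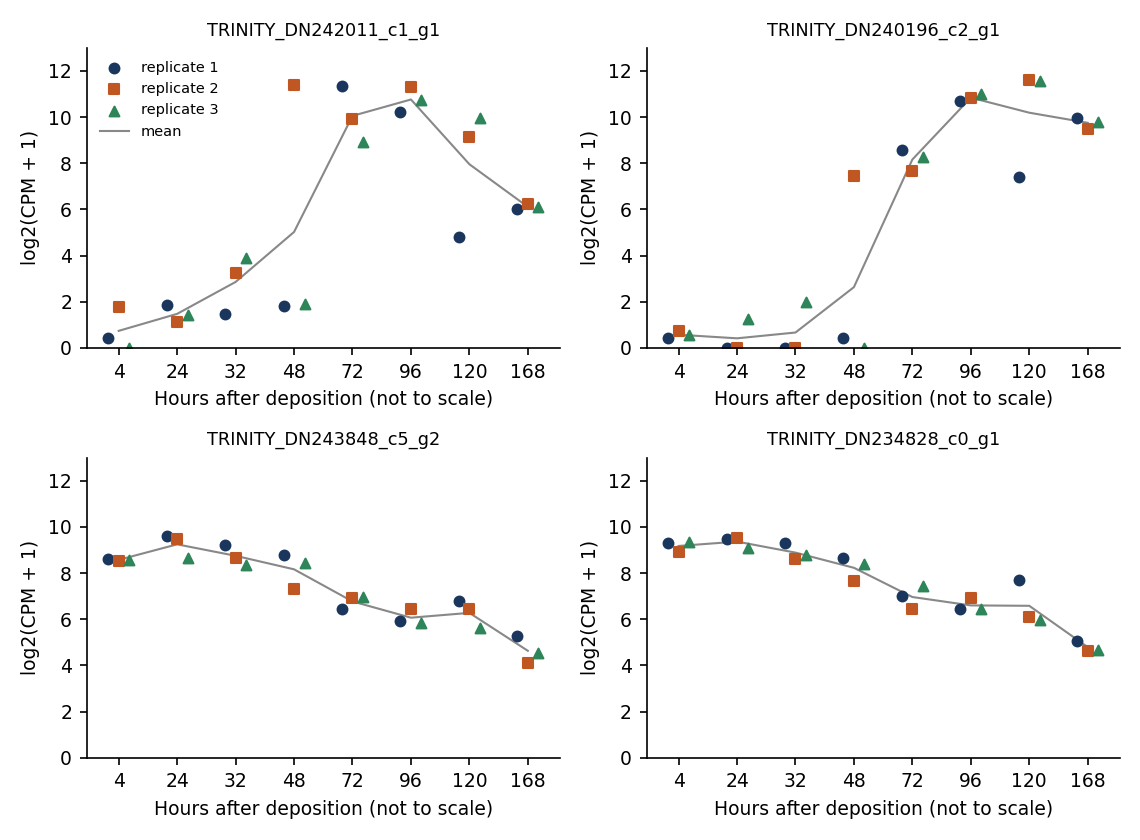
Level of the 4 named genes as log2(CPM + 1) (y axis) in each of the 24 libraries by hours after deposition (x axis, times evenly spaced), with symbols for replicates and a line through the mean. Both upper genes are low in the 24 h libraries and high at 72 h with 48h replicate 2 already high, and both lower genes decline through 32 h and 48 h.

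The size of the called set depended on which libraries entered the fit. Without 24h replicate 1, 24h replicate 2, 72h replicate 1 or 72h replicate 2, edgeR called 5, 0, 6 and 11 genes, with 3108, 2602, 2925 and 2843 genes at an unadjusted p under 0.05. In these fits the filter was run again and kept more genes. With the tested genes held to the 15587, a setting added after seeing the data, the counts were 84, 31, 8 and 59. Removing 24h replicate 3 gave 189 calls, of which 177 were among the 347 of the full fit. With the genes held these numbers were 227 and 208. Removing 72h replicate 3 gave 221 calls with 189 of the 347 among them, or 350 with 264 when the genes were held. Libraries of other times enter through the shared estimate of spread: without 48h replicate 2 the count was 579, or 638 with the genes held, and without 120h replicate 1 it was 806. Without 32h replicate 1 or 3 it was 178 or 218, but 275 or 314 with the genes held. DESeq2 called more rises than falls, with 737 genes higher and 462 lower.

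Calls of the named genes moved in the same fits. The gene TRINITY_DN242011_c1_g1 lost its call without any one of 24h replicates 1, 2 and 3 and 72h replicates 1 and 2, also with the genes held, with an adjusted p of up to 0.212 (edgeR). It lost it as well in a fit to the 12 libraries of the span (adjusted p = 0.0776) and with limma-voom (adjusted p = 0.0961). With the genes held, TRINITY_DN240196_c2_g1 lost its call without 24h replicate 1, 24h replicate 2 or 72h replicate 1 (adjusted p up to 0.12, edgeR), and in the fit to the 12 libraries its adjusted p was 0.0653. With the filter run again it lost its call without any one of 24h replicates 1, 2 and 3 and 72h replicates 1 and 2 (edgeR, adjusted p up to 0.159). Its fold rests on the 4 counts of 24h replicate 3: without that library no count is left at 24 h and the fitted log2 value becomes 13.28, which is no bound. With the genes held, TRINITY_DN243848_c5_g2 and TRINITY_DN234828_c0_g1 lost their calls only without 72h replicate 1 of the 6 libraries (edgeR, adjusted p = 0.0637 and 0.067). With the filter run again they lost them without 24h replicates 1 and 2 and 72h replicates 1 and 2, with an adjusted p of up to 0.114 and 0.131. Their log2 fold changes lay between -2.79 and -2.32 and between -2.66 and -2.14 over all settings.

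The steps within the span each gave few calls. No gene was called by edgeR at 32 h against 24 h, at 48 h against 32 h or at 72 h against 48 h (0 in each). The numbers at an unadjusted p under 0.05 were 722, 1770 and 1155, and DESeq2 called 93, 138 and 8 genes. The last of these steps depended on 48h replicate 2. Without it, edgeR called 25 genes higher and 1 lower at 72 h than at 48 h, or 25 and 2 with the genes held. The number at an unadjusted p under 0.05 was then 2655, or 2378 with the genes held. Without 72h replicate 3 or 120h replicate 1 this step still gave 0. Over the longer gaps, 1 gene was lower at 48 h than at 24 h, which is 0.00642% of those tested, and 16 genes were higher and 71 lower at 72 h than at 32 h, which is 0.103% and 0.456%, or 0.558% together. The single gene of the first gap, left unnamed, had 106, 152 and 169 CPM in the 24 h libraries, 51.8, 34.3 and 40.5 CPM in those of 48 h and 46.5, 42.7 and 36.0 CPM in those of 72 h, so that its fall lay in the first part of the span. By 48 h its log2 fold change was -1.75 (edgeR, adjusted p = 0.00165). The call at 72 h against 32 h was not stable: it gave 0 genes with any of 3 other settings of the filter and block, 275 without 48h replicate 2 and 220 without 120h replicate 1. These comparisons share libraries, so only their counts are set side by side.

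A test of a linear trend in hours, which uses all 12 libraries of the span, called more genes than the comparison of its ends. It called 912 genes that rose, 5.85% of those tested, and 520 that fell, 3.34%, or 9.19% together. It included 77 of the 78 genes that rose and 265 of the 269 that fell from 24 h to 72 h. A joint test for any difference among the 4 times called 120 genes, or 0.77%, of which 114 were called between 24 h and 72 h. The trend calls of rising genes went with a split within 72 h. Of the 912, 471 had 0 counts in 72h replicate 3, or 51.6%, against 24.5% of all tested genes and 4 of the 78 genes that rose between the end points. The trend count was 2350 without 72h replicate 3, 26 without 72h replicate 1, 250 without 72h replicate 2, and 191, 72 and 481 without 24h replicates 1, 2 and 3. It was 604 without 48h replicate 2, 2217 without 48h replicate 1, and 826, 924 and 809 without 32h replicates 1, 2 and 3. Without 120h replicate 1 it was 2598. The joint count ran from 0 without 24h replicate 2 to 614 without 48h replicate 2, and was 182 without 72h replicate 3 and 578 without 120h replicate 1.

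The levels at 32 h and 48 h, which the contrast did not compare, place the change within the span. A called gene was counted as past the midpoint once its mean log2 CPM lay on the 72 h side of the midpoint between its 24 h and 72 h means. By 32 h, 4 of the 78 rising genes and 38 of the 269 falling genes were past it, and by 48 h 28 and 135 were. The median log2 CPM of the falling genes was lower at each time in turn, with 7.38, 7.00, 6.69 and 6.02 at 24, 32, 48 and 72 h. The genes that rose had medians of -0.29, 0.33, 2.10 and 4.68. The 48 h value of the rising genes came largely from 1 library: 70 of 78 were past the midpoint in 48h replicate 2, and 15 in each of replicates 1 and 3. Among the falling genes 216 of 269 were past it in 48h replicate 2, against 72 and 100 in replicates 1 and 3. Without 48h replicate 2 the 48 h numbers were 14 rising and 80 falling genes, with medians of 0.42 and 6.80. Without 72h replicate 3, which also sets the midpoint, they were 22 and 114. With DESeq2 size factors 25 rising and 174 falling genes were past the midpoint at 48 h.

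**Figure D3:**
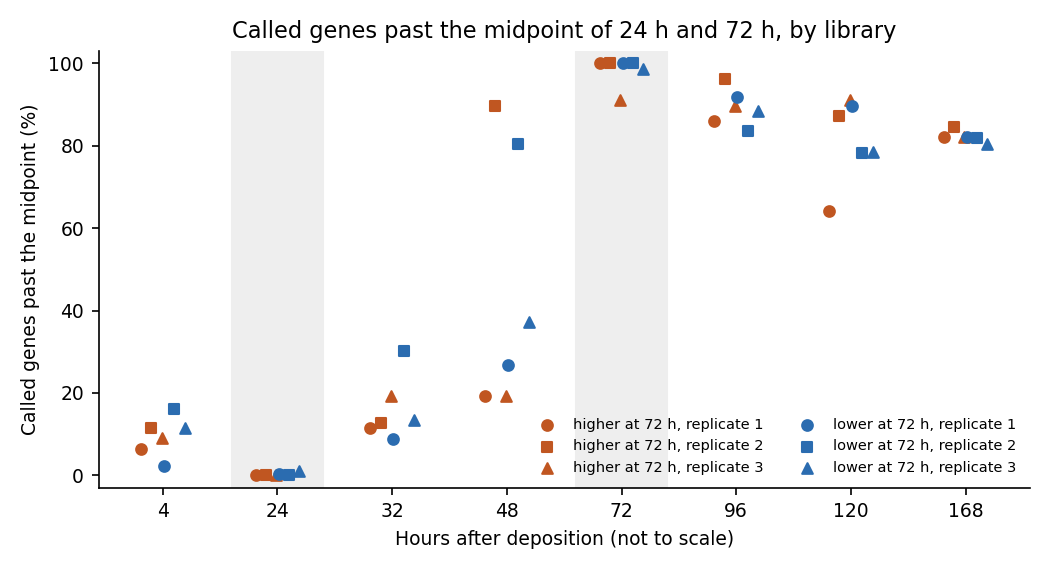
Percentage of the 78 rising and 269 falling genes past the midpoint between their 24 h and 72 h means (y axis) in each library by hours after deposition (x axis, times evenly spaced). The shaded times define the midpoint, so their values are set by construction. The 48 h libraries separate, with replicate 2 at 89.7% and 80.3% and the other 2 at 37.2% or less.

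After 72 h the change mostly persisted. Of the rising genes, 70, 69 and 63 of 78 were still past the midpoint at 96, 120 and 168 h, and 60 were at all of these times. Of the falling genes, 241, 224 and 216 of 269 were, and 196 at all of them. Of the 78 rising genes, 48 had their highest mean in the 96 h libraries, 15 in those of 72 h, 14 in those of 168 h and 1 in those of 120 h. The choice of called genes bars a highest mean at 24 h for rises and at 72 h for falls. Shares over all tested genes were not computed, so no time of peak particular to the called genes is read. For 127 of the falling genes the highest mean was that of 4 h and for 108 that of 24 h. The lowest mean was that of 168 h for 125 of them, of 72 h for 75, of 96 h for 60 and of 120 h for 9. In 120h replicate 1, 50 of 78 rising genes were past the midpoint, compared with 68 and 71 in the other 120 h libraries. Without 120h replicate 1, 69 rising and 212 falling genes were past it at 120 h, and 60 and 192 at all later times. Without 72h replicate 3, 59 and 188 were past it at all later times.

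**Figure D4:**
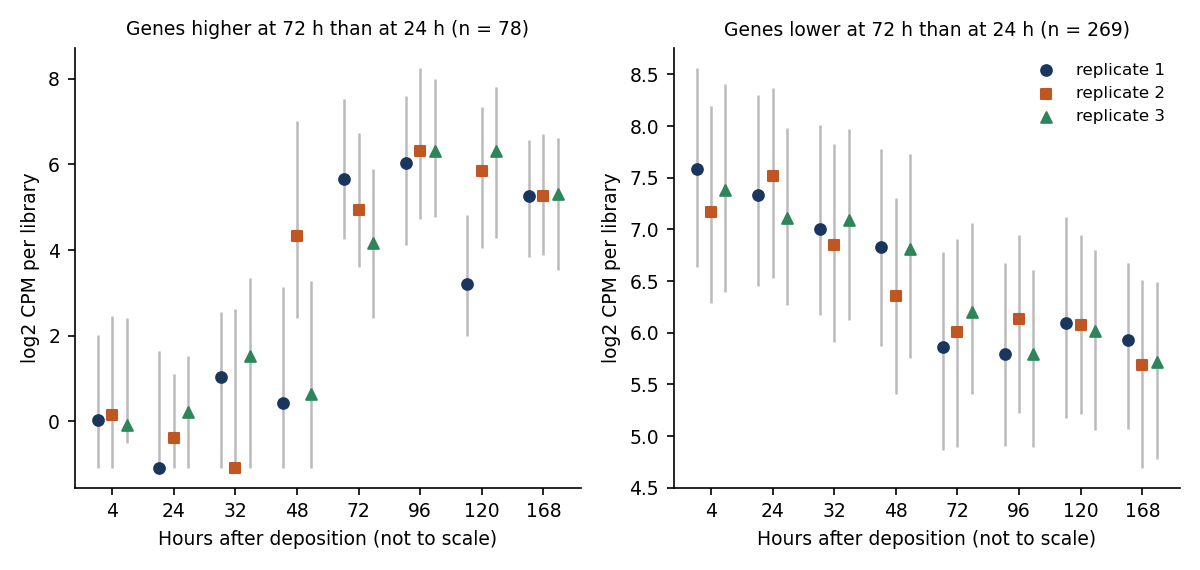
Median log2 CPM (symbols, y axis) with the interquartile range (grey lines) of the rising and the falling genes in each library by hours after deposition (x axis, times evenly spaced). Rising genes lie near 0 at 4 h and 24 h and near 6 at 96 h, with 48h replicate 2 at 4.32 and 120h replicate 1 at 3.20, while medians of falling genes go from 7.12 to 7.51 at 24 h to 5.86 to 6.20 at 72 h.

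Comparisons of 96 h and 168 h with 4 h share no library with this one, but all enter the same filter and estimate of spread. They called 36% and 57.4% of the tested genes in either direction. Of the 78 rising genes, 70 were also called higher at 96 h than at 4 h, or 89.7%, where 22.3% of all tested genes were called higher, and they made up 2.01% of that list. At 168 h against 4 h 65 of 78 were called higher, or 83.3%, where 31.9% were, and they made up 1.31% of that list. Of the 269 falling genes, 220 were called lower at 96 h than at 4 h, or 81.8%, where 13.7% of genes were called lower, and 10.3% of that list. At 168 h 215 were lower, or 79.9%, where 25.5% of genes were, and 5.4% of that list. The shares over all tested genes are not matched for abundance, and 241 of the 269 falling genes were in the most abundant of the 5 groups. Shares among genes of like abundance were not computed, so the excess cannot be separated from abundance. Without 48h replicate 2, 72h replicate 3 or 120h replicate 1 in turn, 70 or 71 rising and 220 to 232 falling genes were called in the same direction at 96 h, and 65 to 70 and 214 to 218 at 168 h. Opposite calls in the full fit were rare, with 2 and 0 rising genes lower and 4 and 1 falling genes higher at 168 h and 96 h.

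As a share of all counts, the 269 falling genes went from 7.90% ± 1.09 in the 24 h libraries through 4.92% ± 1.04 (32 h) and 3.70% ± 0.467 (48 h) to 2.04% ± 0.0967 in the 72 h libraries (SD, n = 3 each). They had held 8.64% ± 0.796 at 4 h. The 78 rising genes went from 0.0604% ± 0.0109 to 0.714% ± 0.351 (SD, n = 3 each), with 1.04%, 0.753% and 0.345% in the 72 h libraries, and had 2.60% ± 0.534 at 96 h. These shares are those of genes chosen on this contrast and carry no test. They also depend on a pair of very abundant genes, TRINITY_DN241489_c5_g3 and TRINITY_DN244104_c12_g2, named here after their values were seen. Outside these 2 genes the falling genes went from 10.7% ± 0.835 to 4.72% ± 0.267, and the rising genes from 0.0826% ± 0.0194 to 1.62% ± 0.73 (SD, n = 3 each).

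The abundance of a pair of genes bears on all shares of counts. TRINITY_DN241489_c5_g3 held 21.3%, 19.5% and 28.3% of counts in the 24 h libraries and 49.7%, 47.5% and 30.7% in those of 72 h. TRINITY_DN244104_c12_g2 held 5.42%, 1.68% and 2.28% at 24 h and 5.78%, 6.07% and 30.2% at 72 h, so 72h replicate 3 differed from the others in which gene led. Neither passed the test of all genes, with log2 fold changes of 1.35 (standard error 1.04, edgeR, adjusted p = 0.493) and 2.77 (standard error 1.11, edgeR, adjusted p = 0.158). The 100 most abundant genes of each library held 48.7% ± 3.59 of counts in the 24 h libraries and 68.5% ± 4.86 in those of 72 h (SD, n = 3 each; exact two-sided permutation test, p = 0.1, the smallest that 3 against 3 libraries allow). Without those 2 genes the shares were 30.8% ± 0.785 and 27.7% ± 5.43 (SD, n = 3 each; exact permutation test, p = 0.4), with a difference of the opposite sign. Of the 100 genes most abundant at 24 h, 64 were among the 100 most abundant at 72 h, 16 were called lower and 0 higher. Of the 100 most abundant at 72 h, 4 were called higher and 3 lower. Over all tested genes 1.73% were called lower and 0.5% higher. Both lists were chosen on the libraries that the contrast compares, so nothing is read from these counts of calls.

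Genes crossing the limit of detection were counted without a test. A gene counted as gained if it had 3 counts or fewer over the 24 h libraries and at least 1 CPM in each 72 h library, and as lost in the reverse case. By this rule 318 genes were gained and 36 were lost, and 125 of the 318 had 0 counts over 24 h. Of the gained genes 292 were tested and 32 were called higher, where 0.5% of all tested genes were. The rule and the calls rest on the same libraries, so nothing is read from that count. Of the 318 gained genes, 179 also had 3 counts or fewer over the 4 h libraries. Between the times, 64, 232 and 38 of the gained genes reached 1 CPM in 48h replicates 1, 2 and 3. Afterwards 231 were at 1 CPM in all libraries of 96 h, 104 in all of 120 h and 233 in all of 168 h. With any library left out the rule is looser, and 395 to 504 genes were gained without a library other than 72h replicate 3. Without 72h replicate 3 the count was 2993. The lost genes numbered 75 to 306 under the same omissions.

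Of the 2993 genes gained without 72h replicate 3, 2511 had 0 counts in that library. These 2511 belong to a wider set, picked after the values were seen and without a limit on the 24 h counts. It was made up of the 3065 genes with at least 1 CPM in 72h replicates 1 and 2 and 0 counts in replicate 3. The 3065 genes held 2.38% and 3.19% of the counts of 72h replicates 1 and 2. In the 24 h libraries 268 to 347 of them were at 1 CPM, and 161 to 390 at 32 h. In 48h replicates 1, 2 and 3 the numbers were 441, 1433 and 1271. At 1 CPM there were 2539 of them in 4h replicate 2, 2085 in 96h replicate 2 and 2044 in 120h replicate 3, against 519 and 1336, 364 and 487, and 494 and 331 in the other libraries of those times. The number thus differed several-fold between libraries of 4 h, 48 h, 96 h and 120 h as well as of 72 h. At 168 h it was 477 to 583. Of the 3065 genes 1866 were tested. The set held 463 of the 912 genes with a rising trend and 4 of the 78 rising genes. Over all tested genes 5.85% were called with a rising trend and 0.5% as higher at 72 h than at 24 h. The set was chosen on 72 h values that enter both tests, so these counts are no independent evidence. Its part in the trend count was not tested further.

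**Figure D5:**
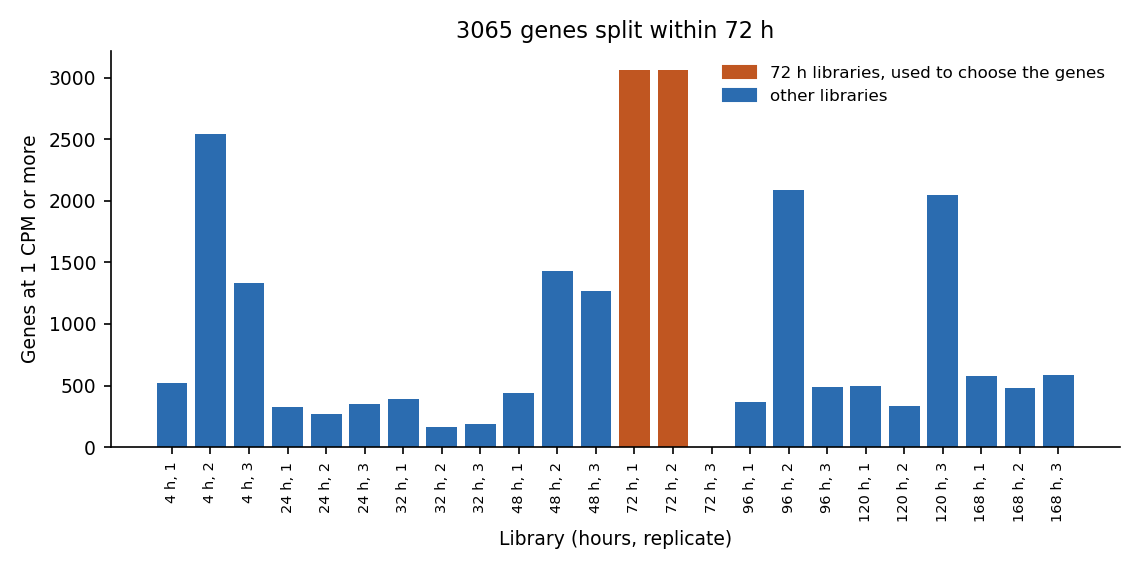
Number of the 3065 genes at 1 CPM or more (y axis, from 0) in each of the 24 libraries (x axis). The 72 h bars are set by the choice of genes, and among the other libraries 4h replicate 2, 96h replicate 2 and 120h replicate 3 are the highest with 2539, 2085 and 2044.

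Distances between whole libraries were compared, although 3 against 3 libraries cannot reach a p under 0.05. The mean distance between times was 1.27 times the mean distance within them over all tested genes (exact one-sided permutation test over 20 splits, p = 0.2; the smallest possible is 0.1). With a prior count of 10 it was 1.32 (exact p = 0.1), and without 72h replicate 3 it was 1.80 (exact p = 0.1), the smallest p possible in each case. The isoform mix of genes changed in few cases: 4 of 6396 genes with several isoforms were called (edgeR diffSpliceDGE, adjusted p under 0.05), with 916 at an unadjusted p under 0.05. Of the 4, 1 was also among the falling genes and 3 were not called as genes. Leaving out any library of the 2 times gave 0 to 3 calls, with 0 without 24h replicate 2 or 24h replicate 3. For single transcripts, 9 of 29911 were called, all of them lower.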

How the data were processed

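Per the labels' protocols, polyadenylated RNA of whole cocoons gave stranded libraries that were read for 100 bp from both ends. Tools named in the submitters' processing notes are FastQC 0.11.2, Trimmomatic 0.32, RSEM, limma 3.54.2, edgeR 3.40.2 and R 4.2.2. An aligner is not given in the sources used here. Deposited by the authors were estimated counts per transcript, RSEM expected counts without normalisation, per the file headers. The deposited TMM-scaled signal table, whose unit is not stated, served only as an alternative after log2(value + 1).

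Counts were summed per assembler gene and rounded. One model was fitted to all 24 libraries, grouped by the 8 times in the labels, with edgeR 4.0.16 in R 4.3.3 (filterByExpr, TMM, glmQLFit, glmQLFTest), and p-values were adjusted by Benjamini-Hochberg over all genes tested. The filter kept a median of 99.6% of counts, and the common biological coefficient of variation was 0.684. Standard errors were back-calculated from the F statistic. Levels are TMM-scaled CPM, or log2 CPM with a prior count of 2. The rule for named genes took the 2 largest changes in each direction under the conditions in the text, with 1 gene per assembler component. Detection and the 3065-gene set used CPM of unscaled totals. The tests were tried on simulated counts. Replicates of 24 h and 72 h differed beyond sampling noise, with a chi-square of at least 8.16 per degree of freedom. Labels call them biological, each of 4 cocoons.

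Alternatives used DESeq2 1.42.0, limma 3.58.1, other filters, scalings and libraries. Genes, lists and comparisons were chosen with earlier results of these data known. No sequence is shown.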

Additional observations from a re-analysis of the deposited data

How the results depend on the processing

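The count of 347 genes changed from 24 h to 72 h was 170 with DESeq2 size factors (55 higher, 115 lower), 169 without a filter on low counts, 229 with 1 CPM in at least 3 libraries, 742 in a fit to the 6 libraries alone, 55 at an adjusted p under 0.01, 642 with limma-voom, 1199 with DESeq2 and 9 at transcript level. Leaving out single libraries gave 0 to 806, and 8 to 638 with the tested genes held to those of the full set, a choice made after seeing the data. The trend count was 931 with 1 CPM in at least 3 libraries, 538 in the 12 libraries alone, 178 at an adjusted p under 0.01, 831 with limma-trend on the authors' table and 71 for transcripts, 26 to 2598 without single libraries, and 96 to 2122 with the genes held. The joint count was 74 with DESeq2 size factors, 19 without a filter, 27 with 1 CPM in 3 libraries, 12 in the 12 libraries alone, 9 at an adjusted p under 0.01, 727 with DESeq2, 0 for transcripts, and 0 to 614 without single libraries, or 3 to 708 with the genes held.

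Among pairs of times, DESeq2 called 93 genes at 32 h against 24 h, 295 at 48 h against 24 h, 138 at 48 h against 32 h, 900 at 72 h against 32 h and 8 at 72 h against 48 h. The pair of 72 h and 32 h gave 20 with DESeq2 size factors and 0 without a filter, with 1 CPM in 3 libraries, in the 12 libraries alone and at an adjusted p under 0.01; the 12 libraries gave 0 at 48 h against 24 h. Without single libraries the counts ran from 0 to 15 at 48 h against 24 h, 0 to 311 at 72 h against 32 h and 0 to 27 at 72 h against 48 h, and were 0 for the other pairs of neighbouring times. These ranges include the fits with the genes held.

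The labels do not say that replicate numbers pair the libraries. Deviations of same-numbered 24 h and 72 h libraries from the means of their times correlated at -0.145, -0.195 and -0.372. Deviations from a mean of 3 libraries depend on each other, and 72h replicate 3 stands apart. These values therefore cannot show whether libraries were paired. With the replicate block 281 genes changed from 24 h to 72 h, 929 had a trend, 30 changed in the joint test, 0 differed at 72 h against 32 h, and 4 changed isoform usage.

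Gained and lost genes numbered 123 and 5 at 2 CPM, 125 and 4 at 0 counts, 413 and 92 after thinning to the shallowest library, and 477 and 349 for transcripts. Without single libraries 395 to 2993 were gained and 75 to 306 lost. At 25% of the change, 24 rising and 118 falling genes were past it at 32 h, and 67 and 257 at 48 h; at 75% of it 0, 5, 7 and 23 were. Without 48h replicate 2, 72h replicate 3 or 120h replicate 1 in turn, alternatives chosen after seeing the data, 14 to 28 rising and 80 to 135 falling genes were past the midpoint at 48 h, and 4 and 33 to 38 at 32 h. Isoform usage changed in 1 gene at an adjusted p under 0.01 and in 0 to 3 without single libraries. The share of the 100 most abundant genes differed by 17.0 to 21.6 percentage points without single libraries, and by -3.08 without the 2 most abundant genes. The distance ratio ran from 1.15 to 1.80. Except where a looser rule or fewer samples sets the change, the cause was not tested. The shallowest library of the comparison held 1617797 counts, where 3 counts are 1.85 CPM, so levels below that are poorly measured in it.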
